A study of Mus musculus with 4 samples.

Results

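The genes described here are 10 components of the JAK-STAT pathway: the 4 Janus kinases *Jak1*, *Jak2*, *Jak3* and *Tyk2*, the transcription factors *Stat3*, *Stat4* and *Stat6*, and the feedback inhibitors *Socs1*, *Socs3* and *Cish*. They were taken by gene symbol from a table of 53379 genes, and all 10 were found. All 10 were also among the 7639 genes tested, which were protein-coding with a mean above 5 FPKM in either group. FPKM scales the fragments of a gene to its transcript length in kilobases and to all mapped fragments, so levels are given per length. Treg cells (CD3+CD4+YFP+) had been sorted at steady state from the large intestine (LI) of adult C57BL/6 mice and measured by RNA-seq. All mice carried *Foxp3*Cre-YFP, which drives Cre recombinase and YFP from the locus of the Treg factor *Foxp3*. Control mice (*Foxp3*Cre-YFP *Setd2* f/+) kept 1 intact copy of *Setd2*, which encodes an H3K36 methyltransferase, and KO mice (*Foxp3*Cre-YFP *Setd2* f/f) had both copies floxed. There were 2 control and 2 KO libraries, each from 2 to 3 pooled mice, so replicate error is the variation from one pool to the other.

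Cytokine receptors that lack a kinase of their own are bound by Janus kinases. When a cytokine brings the receptor chains together, these kinases phosphorylate the receptor and the STAT proteins that dock on it, and the STATs pair and enter the nucleus. SOCS proteins and CIS, the product of *Cish*, are themselves STAT targets and dampen the receptors or kinases that induced them. In Treg cells IL-2 signals through JAK1, JAK3 and STAT5, while STAT3 responds to IL-6, IL-10 and IL-23.

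Several STATs bind the letters TTCNNNGAA, which read the same on both strands. Only this spacing was sought, so a promoter without a match may still hold another STAT site. These letters are shown for the 2 of the 10 genes that held them within 250 bases before and 50 bases after a RefSeq start site (GRCm38.p6), a window that was present for all 10. The *Socs3* stretch lies at chr11:117969502-117969531 on the minus strand, from 165 to 136 bases before the start, and the *Cish* stretch at chr9:107296654-107296683 on the plus strand, from 5 bases before the start to base 25 after it. Both run 5′ to 3′, with the fixed letters of each match in capitals.
Socs3: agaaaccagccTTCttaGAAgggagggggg
Cish: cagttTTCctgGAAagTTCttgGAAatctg
*Cish* had 2 matches, and *Socs3* had 1. Of all 32851 promoters of this length, 2726 (8.3%) held a match and 150 (0.457%) held at least 2. The match describes letters only, and no binding was measured in these libraries. The log2 fold change was -0.43 for *Cish* and 0.22 for *Socs3*, whose 95% interval of -0.53 to 0.97 held both signs. The part of these matches in either value was not tested.

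None of the 10 genes passed an adjusted p below 0.05 between KO and control in limma, whereas 45 of the 7639 genes tested did (0.589%). The adjusted p-values of the 10 genes from limma lay between 0.281 for *Cish* and 0.970 for *Stat3*. At an unadjusted p below 0.05, 0 of the 10 were higher in KO, against 8.61% of all genes tested. The only gene lower in KO at this threshold was *Cish*, or 1 of 10, against 7.57% of all genes tested. In either direction this was 1 of 10, against 16.2% of all genes tested, so the count was not above the background. Both KO libraries lay below both control libraries in 2 of the 10 genes, *Jak1* and *Cish*, and above them in 0, while 47.1% of all genes tested had groups that did not overlap in one direction or the other. On the scale of log2(FPKM + 1), the fold change of KO over control was below 0 in 8 genes and above 0 in 2. Of all 7639 genes tested, 3867 were below 0 and 3772 above. The median was -0.10 for the 10 genes, against -0.004 over all genes tested. The 10 genes share the same libraries, so their signs are not independent.

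Over the 5000 highest ranks, the FPKM of the 4 libraries had been brought to nearly the same distribution before deposit. Depth is therefore unknown, and a change in total mRNA per cell could not be seen. At the low end the libraries were less alike, and control 2 stood apart with the fewest genes listed at 0 (28426 of 53379). This count was 33223 for KO 2, 33490 for KO 1 and 33957 for control 1. Its bearing on the values of control 2 below was not tested. In control, *Setd2* itself had 38.2 and 27.4 FPKM, and in KO 26.3 and 36.3 FPKM, a log2 fold change of -0.06 (limma adjusted p = 0.927). This value over the whole gene did not separate the genotypes and so did not check the labels. By other methods, the authors reported loss of Setd2 protein in splenic KO Treg cells. They also reported much lower H3K36me3 in splenic and LI KO Treg cells. Of 7 Treg markers, *Ctla4* (1593 to 2310 FPKM) and *Tnfrsf18* (1899 to 2218 FPKM) were abundant, but *Foxp3* was listed at only 2.62 to 5.61 FPKM and did not meet the filter. *Ctla4* was higher in KO and *Ikzf2* lower at an unadjusted p below 0.05, and neither passed the adjusted test. Of 25 markers of other cells, 8 passed the filter, and their list summed to 402 and 435 FPKM in control and 387 and 478 FPKM in KO. The markers *Cd8a*, *Ms4a1*, *Ncr1*, *Krt8*, *Krt20*, *Vil1*, *Cdh1*, *Col1a1*, *S100a8* and *Cpa3* were at or near 0, the highest value being 1 FPKM for *Cpa3* in KO 2. *Jchain* (112 to 169 FPKM) and *Lyz2* (128 to 168 FPKM), markers of plasma cells and myeloid cells, were not, and their groups overlapped. *Cd8b1* (2.08 to 2.96 FPKM), *Cd79a* (1.58 to 3.24 FPKM) and *Sdc1* (1.86 to 6.09 FPKM) did not meet the filter and also had overlapping groups. Of the other myeloid markers, *Cd14* (32.4 and 36.8 FPKM in control, 40.2 and 42.0 FPKM in KO), *Adgre1* (4.38 and 3.66 FPKM, 5.6 and 6.24 FPKM), *Itgam* (0.42 and 0.41 FPKM, 0.76 and 0.63 FPKM) and *Itgax* (0.59 and 0.10 FPKM, 0.61 and 0.69 FPKM) had both KO libraries above both control libraries. Of all 7639 genes tested, 1851 had this order, and *Itgam* and *Itgax* lay near 0 and were not tested. *Csf1r* (4.42 to 5.69 FPKM) had overlapping groups, and no myeloid marker tested reached an unadjusted p below 0.05 in limma. *Epcam* (28.7 and 30.8 FPKM in control, 19.6 and 21.1 FPKM in KO) and *Kit* (16.5 and 18.8 FPKM, 12.2 and 11.4 FPKM) were lower in KO at an unadjusted p below 0.05. *Pecam1* (34.7 and 36.3 FPKM, 49.3 and 42.7 FPKM) was higher, and none of these markers passed the adjusted test. The part of other cells in the values below was not tested. In such bulk samples fewer cells of a type and less RNA per cell cannot be told apart.

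**Figure D1:**
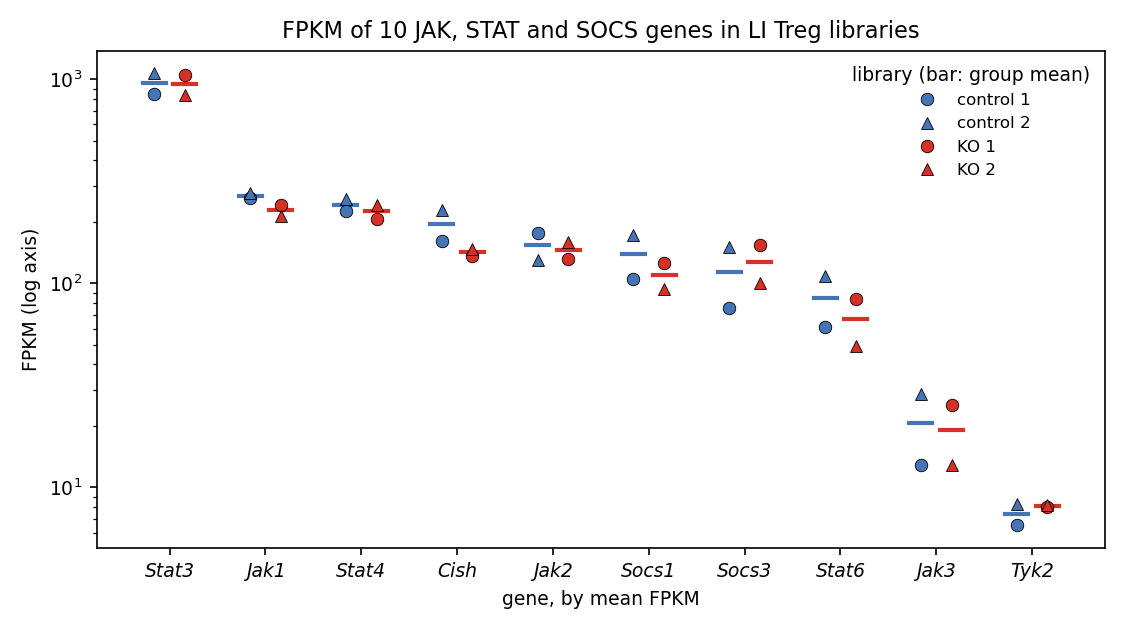
FPKM (log axis) of the 10 genes in each library, ordered by the mean of the 4 libraries, with control in blue, KO in red, replicate 1 as circles, replicate 2 as triangles and bars at group means. *Stat3* stands above the rest at 834 to 1068 FPKM, *Jak3* and *Tyk2* lie lowest, and red and blue points overlap in every gene but *Jak1* and *Cish*.

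By level per length, *Stat3* stood first with a mean of 950.5 FPKM over the 4 libraries, 3.83-fold above the next gene, *Jak1*. After it came *Jak1* (248 FPKM), *Stat4* (233.5 FPKM), *Cish* (168.5 FPKM), *Jak2* (149 FPKM), *Socs1* (124.5 FPKM), *Socs3* (120.2 FPKM) and *Stat6* (75.8 FPKM). Within this run of genes, each shared part of its range over the libraries with the next, so neighbors did not differ beyond their spread. *Jak3* (19.9 FPKM) and *Tyk2* (7.75 FPKM) followed, each with a range below that of the gene before it. The plot of FPKM by library follows this order, which is that of the listed FPKM. In the same libraries *Foxp3* was listed at only 2.62 to 5.61 FPKM, though the cells were sorted by YFP from its locus. How far a listed level follows the mRNA of a gene was not tested.

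Among the kinases, *Jak1* (ENSMUSG00000028530, chromosome 4, 101152367 to 101265282, GRCm38) serves receptors of the IL-2, IL-6, IL-10 and interferon families. *Jak1* had 261 and 276 FPKM in control and 242 and 214 FPKM in KO. Both KO libraries lay below both control libraries, and the log2 fold change was -0.24 (SE 0.11, 95% interval -0.50 to 0.03, limma unadjusted p = 0.073, adjusted p = 0.358).

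*Jak2* (ENSMUSG00000024789, chromosome 19, 29251828 to 29313080) serves the IL-12, IL-23 and hematopoietin receptors. It had 177 and 129.7 FPKM in control and 131 and 159 FPKM in KO. The KO libraries lay between the control libraries, with a log2 fold change of -0.07 (SE 0.17, 95% interval -0.47 to 0.33).

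*Jak3* (ENSMUSG00000031805, chromosome 8, 71676296 to 71690575) binds the common gamma chain shared by the receptors of IL-2, IL-7 and IL-15. In control it had 12.9 and 28.6 FPKM, and in KO 25.3 and 12.8 FPKM. One library of each genotype was high and one low, with a ratio of 2.23 between the highest and the lowest. Between genotypes it differed by -0.09 (log2, SE 0.40), and the 95% interval, -1.03 to 0.85, was the widest of the 10. *Jak3* shares 404 exonic bases with *Insl3* on the same strand, which had at most 1.98 FPKM.

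*Tyk2* (ENSMUSG00000032175, chromosome 9, 21104068 to 21131243) is the partner kinase of type I interferon, IL-10, IL-12 and IL-23 receptors. It was the lowest of the 10, with 6.52 and 8.28 FPKM in control and 8.01 and 8.19 FPKM in KO. Both KO libraries lay within the range of the control libraries, and the log2 fold change was 0.12 (SE 0.20, 95% interval -0.35 to 0.60).

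Among the STATs, *Stat3* (ENSMUSG00000004040, chromosome 11, 100885098 to 100939540) mediates IL-6, IL-10 and IL-23 signals and is needed for *Il17a* expression in Th17 cells. It had 847 and 1068 FPKM in control and 1053 and 834 FPKM in KO. The group means were 957.5 ± 156 FPKM in control and 943.5 ± 154 FPKM in KO (SD, n = 2 each). On the log2 scale KO differed from control by -0.02 (SE 0.16), and the 95% interval of -0.40 to 0.35 bounds the difference that these libraries allow.

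*Stat4* (ENSMUSG00000062939, chromosome 1, 51987148 to 52107189) transmits IL-12. It had 227 and 257 FPKM in control and 207 and 242 FPKM in KO, so the groups overlapped. This gave a log2 fold change of -0.11 (SE 0.13, 95% interval -0.41 to 0.19). *Stat4* shares 1033 exonic bases with the noncoding gene *Gm28177* on the same strand, which had at most 1.62 FPKM.

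*Stat6* (ENSMUSG00000002147, chromosome 10, 127642986 to 127660957) transmits IL-4 and IL-13 and induces *Gata3* in Th2 cells. In control it had 60.9 and 109 FPKM, and in KO 83.8 and 49.3 FPKM. The highest and the lowest library differed by a ratio of 2.21, larger than the ratio of the group means, 85.0 ± 34.1 FPKM in control and 66.5 ± 24.4 FPKM in KO (SD, n = 2 each). The log2 fold change of -0.34 (SE 0.31) had a 95% interval of -1.07 to 0.40.

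Of the feedback genes, *Cish* (ENSMUSG00000032578, chromosome 9, 107296026 to 107302784) had the smallest p of the 10. CIS is induced by STAT5 and limits signals of the IL-2 and T cell receptors. *Cish* had 161 and 229 FPKM in control and 136 and 148 FPKM in KO, with group means of 194.8 ± 48.1 and 142 ± 8.21 FPKM (SD, n = 2 each). Both KO libraries lay below both control libraries. Their log2 difference was -0.43 (SE 0.17, 95% interval -0.83 to -0.03, limma unadjusted p = 0.038, adjusted p = 0.281). With 1 library left out it ranged from -0.68 without control 1 (limma unadjusted p = 0.00091) to -0.18 without control 2 (limma unadjusted p = 0.233), and without KO 1 or KO 2 the unadjusted p from limma was 0.147 or 0.0718. *Cish* lies 3.23 Mb from *Setd2*, and of the 153 genes tested within 20 Mb of *Setd2*, 37 (24.2%) had an unadjusted p below 0.05, against 16.2% of all genes tested. The part of this position in the value was not tested. On the opposite strand, *Cish* shares 261 exonic bases with *Gm17040*, which had at most 3.24 FPKM, and 479 with *Gm17041*, which was listed at 0.

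*Socs1* (ENSMUSG00000038037, chromosome 16, 10782240 to 10785536) inhibits the kinases of interferon and common gamma chain receptors. It had 105 and 173 FPKM in control and 126 and 94.0 FPKM in KO. The groups overlapped, and the log2 fold change was -0.31 (SE 0.24, 95% interval -0.87 to 0.26).

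*Socs3* (ENSMUSG00000053113, chromosome 11, 117966079 to 117970047), a STAT3 target, inhibits receptors that signal through gp130. It had 75.6 and 150.5 FPKM in control and 154 and 101 FPKM in KO. The lowest library was control 1, and the values of control 2 and KO 1 were alike. KO over control gave a log2 fold change of 0.22 (SE 0.32, 95% interval -0.53 to 0.97). *Socs3* and *Tyk2* were the 2 genes with a value above 0.

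**Figure D2:**
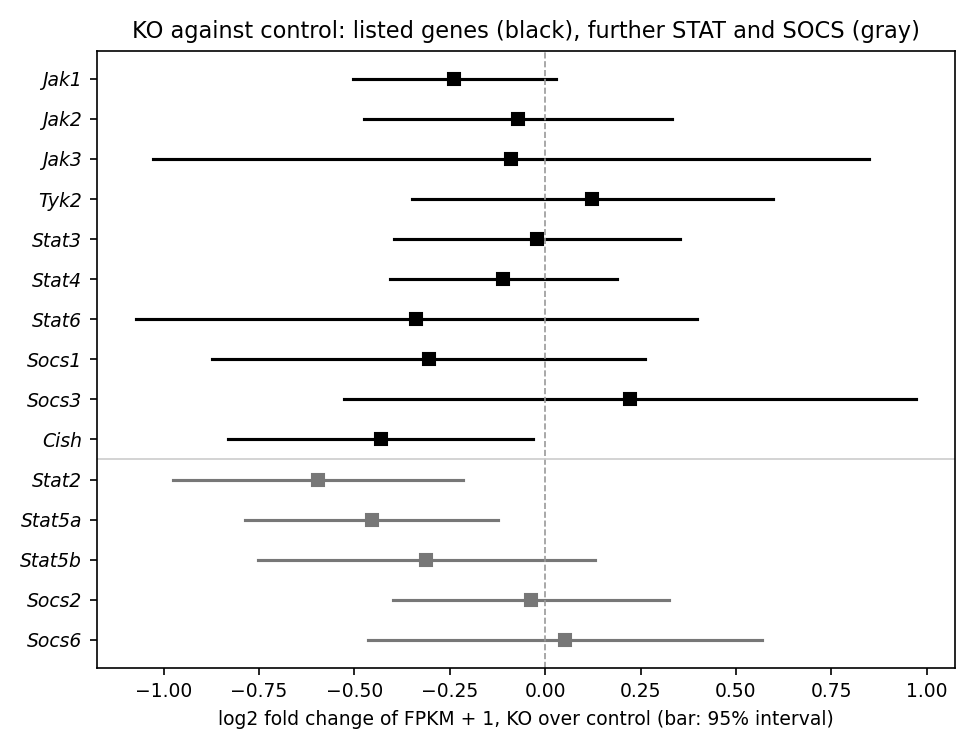
Log2 fold change of FPKM + 1, KO over control, for the 10 genes in black and further STAT and SOCS genes tested in gray, with bars for the 95% interval from limma. Among the 10, the bar of *Cish* alone (-0.83 to -0.03) leaves out 0, while those of *Stat2* and *Stat5a* below the line also do.

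Which library was the higher of a pair followed a common pattern in several of the 10 genes. In 6 of them (*Jak1*, *Jak3*, *Stat3*, *Stat6*, *Socs1* and *Socs3*) control 2 was above control 1 and KO 1 above KO 2, an order that 30.7% of all genes tested had. The gap between control libraries was 1.09 (log2) in *Jak3*, 0.98 in *Socs3*, 0.83 in *Stat6* and 0.72 in *Socs1*, against a median size of 0.186 and a 95th percentile of 0.635 over all genes tested. In the same genes KO 2 lay below KO 1 by a log2 gap of -0.93, -0.61, -0.76 and -0.42. *Jak3*, *Stat6* and *Socs3* passed the 95th percentile in both groups, 3 of 10, as did 1.24% of all genes tested. *Jak2* had the opposite order, with gaps of -0.45 in control and 0.28 in KO. In 9 of the 10 genes the gap between control libraries was as large as or larger than the size of the fold change between genotypes, the exception being *Jak1*. For 7 genes the KO mean lay within the range of the control libraries. The share of all genes tested was not computed for either count, so neither is read as particular to the 10 genes. These gaps are a description of 4 libraries, and no test was made on them.

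**Figure D3:**
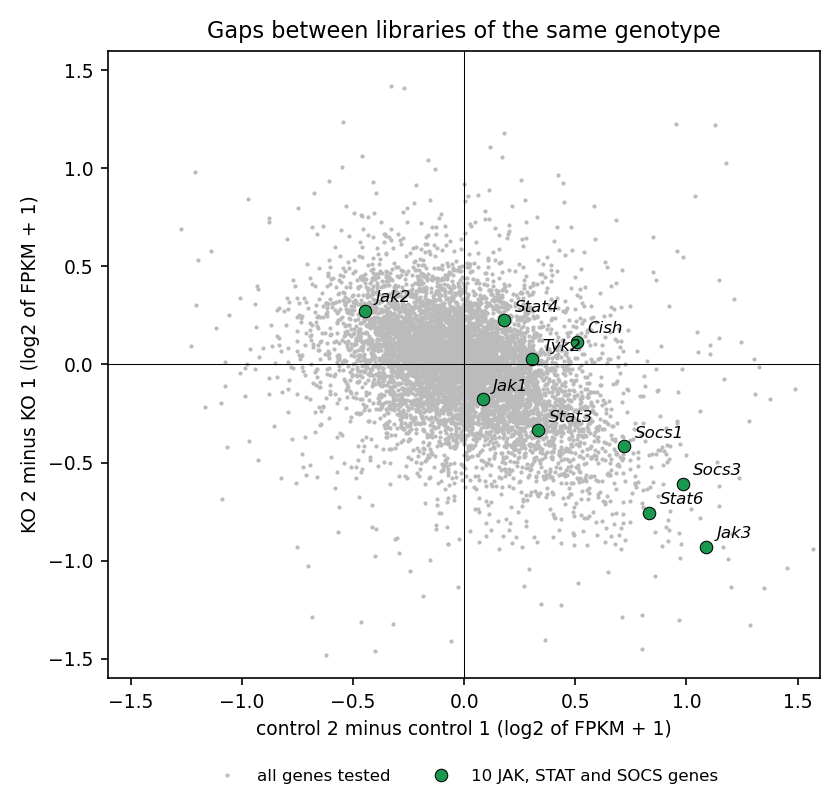
Each point is a gene, with the log2 gap between the control libraries across and that between the KO libraries up, the 10 genes in green and all genes tested in gray (24 genes lie outside the axes). *Jak3*, *Stat6*, *Socs3* and *Socs1* sit at the lower right edge of the cloud, *Jak2* at the upper left, and the cloud itself slopes downward with a Pearson r of -0.305.

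The GC content of the transcripts moved with these gaps. Over 7631 genes tested with a transcript, GC content and the gap had a Pearson r of 0.287 in control and -0.324 in KO, and GC content and the log2 fold change had an r of -0.06. Genes share their libraries and are not independent replicates, so these are descriptions. When the genes were ranked by GC content and divided into 10 bins of like size, the median gap in the lowest bin was -0.128 in control and 0.104 in KO, and in the highest bin 0.199 and -0.182. *Jak3* (61.1% GC), *Socs1* (58.8%) and *Socs3* (58.7%) belonged to the highest bin, and 6 of the 10 genes to the upper 3 bins. *Jak2*, with the opposite gaps, had 44.3% GC. With a GC trend removed from each library, an alternative chosen after seeing the data, the gaps of *Jak3* were 0.84 and -0.70, those of *Stat6* 0.77 and -0.66, those of *Socs3* 0.79 and -0.41, and those of *Socs1* 0.52 and -0.22. *Jak3* and *Stat6*, 2 of the 10, then passed the 95th percentile in both groups (0.592 in control and 0.542 in KO), as did 1.11% of the genes, and *Socs3* no longer did in KO. The same 6 genes kept the order of control 2 above control 1 and KO 1 above KO 2, which 30.2% of the genes then had. The part of GC content in the levels of these genes was not tested beyond these values.

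**Figure D4:**
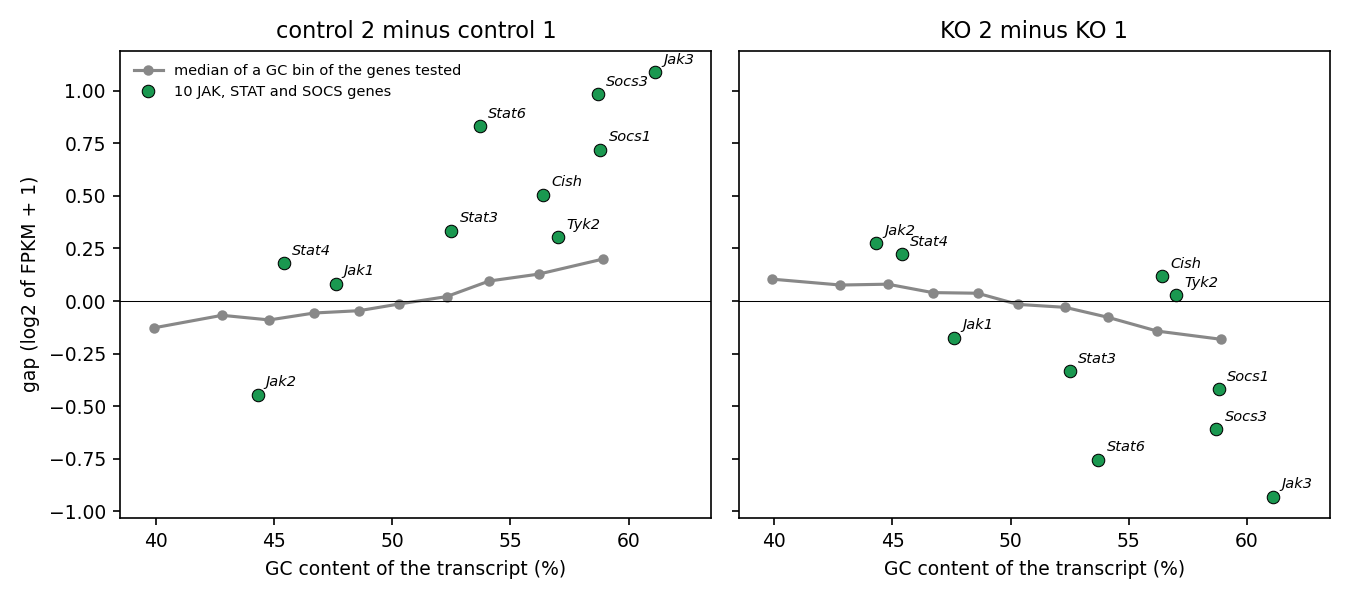
GC content of the transcript (%) against the log2 gap between the control libraries (left) and between the KO libraries (right), for the 10 genes in green and, in gray, for the medians of 10 GC bins of all genes tested. The gray line rises from -0.128 to 0.199 in control and descends from 0.104 to -0.182 in KO, and *Jak3*, *Socs1*, *Socs3* and *Stat6* lie beyond it on the same side.

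Of 3 further STATs, 0 were higher and 2 were lower in KO at an unadjusted p below 0.05. Over all genes tested, 8.61% were higher and 7.57% lower. None of the 3 passed the adjusted test in the fit without pairing. These genes share their libraries, and their list was chosen with earlier results of these data known. *Stat2*, which acts in type I interferon responses, had 34.4 and 41.6 FPKM in control and 27.3 and 22.4 FPKM in KO (log2 fold change -0.59, SE 0.16, limma unadjusted p = 0.0074, adjusted p = 0.159). *Stat5a*, which carries IL-2 signals, had 114 and 144 FPKM in control and 97.6 and 89.6 FPKM in KO (log2 fold change -0.45, SE 0.14, limma unadjusted p = 0.0138, adjusted p = 0.203). *Stat5b* had 97.7 and 139 FPKM in control and 105 and 83.8 FPKM in KO, and these groups overlapped. Transcripts of *Stat5a* and *Stat5b* are 90.9% identical over 2332 bases, so reads may be divided between them with error. *Stat3* and *Stat5a* share 72 exonic bases on opposite strands, and the library preparation is not stated to keep strand. Of further SOCS genes, *Socs2* had 122 to 166 FPKM and *Socs6* 6.77 to 9.62 FPKM, with overlapping groups, while *Socs4*, *Socs5* and *Socs7* had at most 5.07 FPKM and were not tested.

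Around these genes, the further lists of pathway components (receptor chains, other negative regulators, SOCS-box ligase partners, STAT cofactors and STAT target genes) held no gene with an adjusted p below 0.05 in limma. Of 31 receptor chains, 19 were tested, of which 2 were higher in KO and 0 lower at an unadjusted p below 0.05, so the share higher was near the 8.61% of all genes tested. These were *Il23r* (log2 fold change 0.71, limma adjusted p = 0.113) and *Il10rb* (0.37, limma adjusted p = 0.222), the chain shared by the IL-10 and IL-22 receptors. *Il6st*, which encodes gp130, and *Il6ra*, the IL-6 binding chain, both had KO libraries below control libraries, with log2 fold changes of -0.46 (limma adjusted p = 0.322) and -0.47 (limma adjusted p = 0.327). The median of the 19 was -0.009, near that of all genes tested.

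Other negative regulators, mostly phosphatases and PIAS proteins, had 0 of 12 genes past an unadjusted p of 0.05 in either direction, against 16.2% of all genes tested. The smallest p-values belonged to *Usp18*, an inhibitor of interferon signaling (log2 fold change -0.26), *Dusp2* (-0.44), *Ptpn1* (0.18) and *Ptpn2*, a phosphatase of JAK1 and JAK3 (-0.13). SOCS proteins recruit a ubiquitin ligase through elongins B and C. *Elob*, which encodes elongin B, had 390.1 and 368 FPKM in control and 529.6 and 598 FPKM in KO (log2 fold change 0.57, SE 0.11, limma unadjusted p = 0.00128, adjusted p = 0.0821). Its partner *Eloc* had 244 and 243 FPKM in control and 204 and 213 FPKM in KO (log2 fold change -0.22, limma adjusted p = 0.344), so the elongin pair had values of opposite sign. *Ube2m* (0.40) and *Rnf7* (-0.25), which act in the neddylation and RING steps of such ligases, were next, and *Elob* was the only 1 of 9 past an unadjusted p of 0.05. Of 8 STAT cofactors and adaptors, 0 passed it, with *Crebbp* (-0.17), *Stam* (-0.14), *Jakmip1* (0.09) and *Nmi* (0.09) nearest. None of these lists stood above the 16.2% of all genes tested.

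Target genes of STATs had 3 of 26 higher and 5 lower in KO at an unadjusted p below 0.05, where 8.61% of all genes tested were higher and 7.57% lower. The median log2 fold change of the 26 was -0.02, against -0.004 over all genes tested. Higher were the Th17 cytokines *Il17f* (0.87, limma adjusted p = 0.0679) and *Il17a* (0.77, limma adjusted p = 0.0875), and the receptor chain *Il18r1* (0.37). Lower were *Myc* (-0.83, limma adjusted p = 0.0612), the survival gene *Bcl2* (-0.73, limma adjusted p = 0.126), the kinase gene *Pim2* (-0.54), the cyclin gene *Ccnd2* (-0.38) and *Gata3* (-0.35). *Bcl2* had 11.2 FPKM in both control libraries and 6.54 and 6.14 FPKM in KO. The share lower, 5 of 26, was above the 7.57% of all genes tested, and the share higher, 3 of 26, was nearer to 8.61%. The list was chosen with earlier results of these data known, and its genes share their libraries. The 26 did not move in 1 direction, and they have inputs other than STATs. The part of STATs in these values was not tested.

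**Figure D5:**
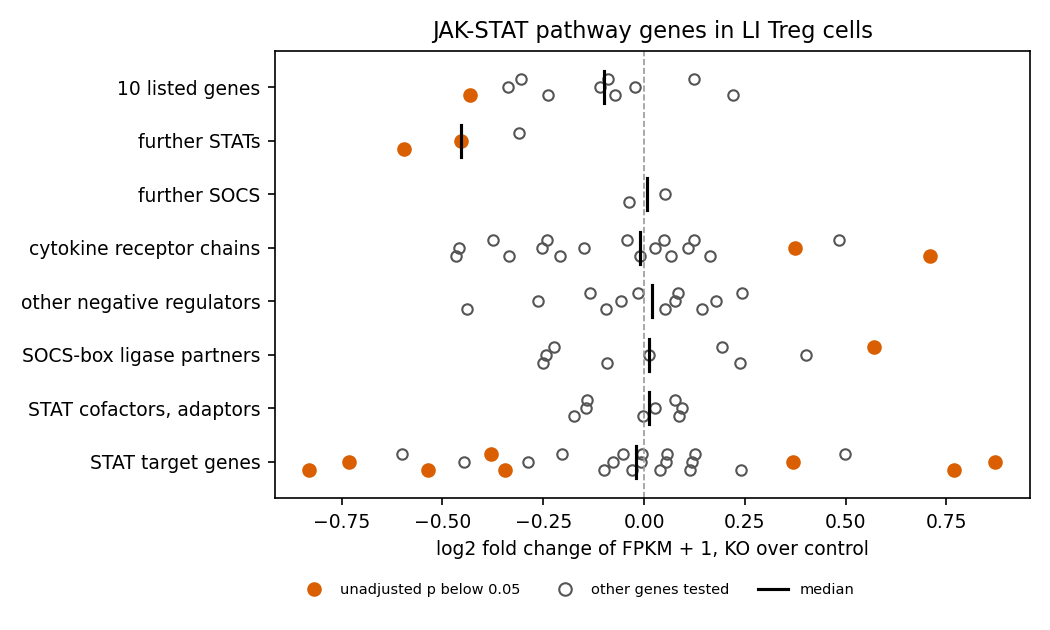
Log2 fold change of FPKM + 1, KO over control, for every gene tested in 8 lists of JAK-STAT components, with filled orange circles for an unadjusted p below 0.05, open circles for the rest and a black line at the median. The medians lie between -0.019 and 0.019 in all lists but the 10 genes (-0.10) and the further STATs (-0.455), and the STAT target genes spread furthest to both sides.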

How the data were processed

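Poly(A) RNA of sorted LI Treg cells was sequenced in paired reads of 150 bp. Per the labels and methods, the authors mapped reads to GRCm38 with STAR 2.5 and quantified genes with RSEM 1.2, and they deposited FPKM rounded to 2 decimals. Values at the same rank differed by at most 0.173% between libraries over the 5000 highest ranks, a step that the methods do not name. No counts were at hand, so depth is unknown and a count test was not applied. Precision therefore rests on how far the pools of a group lie apart.

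limma 3.58.1 (R 4.3.3) was fitted to log2(FPKM + 1) of protein-coding genes with a mean above 5 FPKM in either group, with KO against control, no covariate, a trend in the empirical Bayes step and Benjamini-Hochberg adjustment over 7639 genes. An exact permutation test of 2 against 2 libraries cannot go below p = 0.333. The fit was tested on simulated data. Types, positions, overlaps and GC content came from a later GENCODE annotation of GRCm38, which held 53274 of the identifiers, and similar transcripts were sought with blastn 2.17.0. Promoter sequences came from RefSeq (GRCm38.p6).

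The 10 genes and all lists were chosen with earlier results of these data known. All 10 genes and further STAT and SOCS genes were named. The values of 2 genes that this rule covers are not reported here, and the lists, their counts and the figures of lists leave them out. From each pathway list, the 4 genes tested with the smallest p were named, and the remaining genes past an unadjusted p of 0.05 among the STAT targets were named after their values were seen. Alternatives were other pseudocounts, filters, scalings, no trend, a replicate block, genes near *Setd2* left out, each library left out and, added after seeing the data, a crossed pairing and a GC correction.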

Additional observations from a re-analysis of the deposited data

How the results depend on the processing

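None of the 10 genes passed an adjusted p below 0.05 in limma under any of the alternatives run, and in every setting but those that left out 1 library each kept its sign. The 1 gene lower in KO at an unadjusted p below 0.05, *Cish*, became 0 with no filter on FPKM, with all gene types, with no trend and, since it lies there itself, with genes within 20 Mb of *Setd2* left out. Leaving out 1 library gave 0 to 3 genes lower and 0 to 1 higher. *Cish*, *Stat6* and *Socs1* were those lower without control 1, and *Socs3* was higher without control 2. The log2 fold change then ranged from -0.29 to 0.15 for *Jak2*, -0.63 to 0.45 for *Jak3*, -0.028 to 0.28 for *Tyk2*, -0.19 to 0.15 for *Stat3*, -0.22 to 0.0026 for *Stat4*, -0.75 to 0.078 for *Stat6*, -0.67 to 0.054 for *Socs1*, -0.27 to 0.71 for *Socs3*, -0.25 to 0.18 for *Socs2* and -0.17 to 0.28 for *Socs6*. Values stayed below 0 for *Jak1* (-0.33 to -0.15), *Cish* (-0.68 to -0.18), *Stat2* (-0.73 to -0.46), *Stat5a* (-0.62 to -0.29) and *Stat5b* (-0.56 to -0.06). The unadjusted p from limma rose above 0.05 for *Stat2* without KO 2 (0.066) and for *Stat5a* without control 2 (0.08) or KO 2 (0.0846), and for *Stat5b* it was 0.00959 without control 1.

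The 45 genes called among all genes tested became 27 with a mean of at least 1 FPKM, 13 with all gene types, 3 with no trend, 28 without genes near *Setd2*, 113 with the GC correction, 219 with it and the replicate block, and 2 to 66 with 1 library left out (2 without KO 1, 3 without KO 2). No filter on FPKM gave 0 in limma, where an unadjusted p below 0.05 was reached by 1170 genes higher and 776 genes lower in KO. Deviations of same-numbered libraries had a correlation of -0.305. The labels do not say whether these pools were collected together. GC content moved with the gaps of both groups, and after the GC correction the control and KO gaps still had a Pearson r of -0.227. Whether the pools were pairs cannot be told from these values. A replicate block gave 27 calls, none among the 10 genes, and 1 of the 10 lower at an unadjusted p below 0.05. A crossed pairing, chosen after seeing the data, gave 465 calls, none among the 10 genes and 2 among the further STATs (*Stat2* and *Stat5a*), and 4 of the 10 lower at an unadjusted p below 0.05. The crossed pairing takes up the opposite deviations seen in these same data, so its calls do not stand as support for a difference in any gene. The cause of these shifts was not tested. Depth is unknown, so its limit on *Tyk2* and other low genes could not be given.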
